A study of Mus musculus with 6 samples.

Results

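Genes that mark macrophages, 8 in number, were examined in chromatin accessibility data from cultured skeletal stem and progenitor cells (SSPCs), the stromal cells of bone marrow from which bone and fat cells arise. They were Spi1, Csf1r, Ptprc, Cd68, Adgre1, Cx3cr1, Tyrobp and Fcgr3, out of 21866 protein-coding genes of the GENCODE annotation of the mouse genome build mm10. They were chosen by name, with earlier results of these data known. For each gene, every called peak was taken that lay within 1000 bp of one of its transcription start sites (TSSs), in its gene body or in the 20 kb upstream of it. The assay was ATAC-seq: a transposase inserts sequencing adapters wherever DNA is accessible, and places rich in insertions are called as peaks. The cells were grown from tibial and femoral marrow of C57BL/6 animals, received no treatment and were used at passage one after plating in flasks. Age was the only contrast, with 3 libraries labelled young and 3 labelled middle-aged, and the labels describe plating and passage but no sort by surface marker. They do not tie a library to an animal, so p-values measure the spread between these libraries only.

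Macrophages are phagocytes of the blood lineage that settle in every tissue, marrow included, and adhere to culture plastic as stromal cells do. Spi1 encodes PU.1, the transcription factor of the ETS family that sets up the myeloid program. It binds a purine-rich box at the promoters and enhancers of most macrophage genes, commonly beside C/EBP, RUNX and AP-1 factors. Csf1r, the receptor through which macrophages receive their survival signal, is known for an enhancer in its second intron. Ptprc encodes CD45, a phosphatase on nearly all nucleated blood cells, Cd68 a lysosomal glycoprotein, and Adgre1 the F4/80 antigen. Cx3cr1 is the fractalkine receptor, Tyrobp the signalling adaptor DAP12 and Fcgr3 a low-affinity receptor for immunoglobulin G.

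Each deposited list held the peaks of 1 library, between 27628 and 48344 of them. Young 3 had the shortest list and the lowest genome-wide background, 1.65 extended reads per base against 2.40 to 3.75 in the other lists. From each peak a rank and a fold enrichment were read. The percentile rank placed a peak in its own list by its −log10 q, with 100 as the strongest. The fold enrichment compared the pileup of reads at the summit with the peak caller's local background. A library with fewer macrophages and one with less open chromatin per macrophage cannot be told apart in such bulk data.

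The starts of nearly all 8 genes were called accessible in every library. Of the 8 genes, 7 had a TSS peak in all 6 libraries, beside 48.3% of all protein-coding genes. Csf1r was the exception, with a TSS peak in 2 libraries. The peaks at the starts were of middling strength. The median over the 7 genes of the mean rank was 60.8, whereas over the 10569 genes with a TSS peak in every library it was 84.9. In single libraries the median of the 7 genes ran from 39.6 in young 3 to 70.9 in middle-aged 2, and that of all such genes from 77.4 to 88.8.

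Spi1 had 2 start regions, and the better one differed between libraries. At its principal start, on chromosome 2 at position 91096096, a region at chr2:91096466-91096919 lay in the untranslated part of exon 1. Its ranks were 44.0, 63.0 and 8.80 for young 1 to 3 and 67.7, 71.9 and 66.6 for middle-aged 1 to 3. All 3 middle-aged values lay above the young ones, and young 3 was far below the others. An upstream start of the gene, annotated at position 91082390, lay beside a region at chr2:91082866-91083288 whose ranks were 41.95, 72.7 and 36.2 in the young libraries and 77.8, 69.5 and 76.9 in the middle-aged ones. Here young 2 lay within the middle-aged range. This region, at -13.0 kb from the principal start, was the better one in young 2, young 3, middle-aged 1 and middle-aged 3. Whether it acts as a start or as a distal enhancer was not tested. Taking the better region in each library, the mean rank was 50.9 ± 19.2 for the young group and 75.5 ± 3.17 for the middle-aged group (SD, n = 3 each; exact permutation test, two-sided p = 0.2). With 3 libraries a group the smallest p this test can give is 0.1, so no gene could pass 0.05 by it.

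The blood-wide gene Ptprc had overlapping ranks in the age groups. Ranks at its start, at chr1:138175148-138175538, were 65.1, 53.7 and 59.9 in the young libraries and 52.7, 67.5 and 62.7 in the middle-aged ones. The difference was 1.38 rank points (exact permutation test, two-sided p = 0.8), and -13.5 points once all lists were cut to equal length. Cd68, at chr11:69665938-69666498, had ranks of 55.9, 51.9 and 62.3 in the young libraries and 69.3, 60.2 and 65.3 in the middle-aged ones. These groups overlapped too, and the means were 56.7 ± 5.25 and 64.9 ± 4.54 (SD, n = 3 each; exact permutation p = 0.2). With equally long lists the Cd68 difference was -2.64 points. The fold enrichment of Cd68 lay between 4.48 and 5.79, over a local background of 5.22 to 9.56 reads.

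Adgre1, the gene of the F4/80 antigen by which mouse macrophages are usually recognised, separated the age groups. Its region at chr17:57358424-57358831 ranked at 54.3, 60.6 and 36.5 in the young libraries and at 74.6, 70.9 and 67.9 in the middle-aged ones. The fold enrichment was 6.32, 7.57 and 6.30 against 10.4, 9.02 and 8.29. Every middle-aged value lay above every young one on both scales. The rank difference was 20.7 points (exact permutation p = 0.1). Ranks separated in this way in 30.6% of all genes with a TSS peak in every library. These fold enrichments were not centred, and without centring 88.7% of all regions called in every library had a positive difference.

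Tyrobp had the strongest start peak of the 8 genes, with ranks of 80.3, 66.8 and 74.6 in the young libraries and 83.0, 84.3 and 86.5 in the middle-aged ones. Again no ranks of the age groups overlapped, beside the same 30.6% of genes. The means were 73.9 ± 6.78 and 84.6 ± 1.78 (SD, n = 3 each; exact permutation p = 0.1). That peak, at chr7:30412617-30413276, had its summit at -906 bp from the principal start and lay only just inside the window of 1000 bp. The start proper carried a separate, weaker region at chr7:30413607-30413982. Its ranks were 48.4 and 59.6 in young 1 and young 2, against 24.2, 70.9 and 64.8 in the middle-aged group, with no peak called in young 3. With a window of 500 bp, 6 of the 8 genes had a TSS peak in every library, Tyrobp not among them, beside 10328 of all 21866 genes. With 2000 bp all 8 had one, Csf1r included, beside 10863 of all genes. In young 1 and the middle-aged libraries the Csf1r peak was then a weak one inside its second intron, at chr18:61107607-61107964.

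Cx3cr1, at chr9:120068155-120068550, had ranks of 64.9, 49.5 and 39.6 in the young libraries and 56.5, 75.8 and 68.4 in the middle-aged ones. A second start region, at chr9:120068670-120069046, was called in every library but young 3 and was the better one in young 2, at a rank of 52.5. Fcgr3, at chr1:171059197-171059614, had ranks of 62.2, 59.3 and 30.1 in the young libraries and 64.2, 45.5 and 64.5 in the middle-aged ones. The groups overlapped for both genes, and exact permutation tests gave p = 0.2 for Cx3cr1 and p = 0.5 for Fcgr3. Fcgr3 lies in a cluster of related receptor genes, and how reads that align to several places were counted is not given in the sources used here. An upstream start of Fcgr3 had a peak only in middle-aged 1 and 3, at ranks of 10.9 and 40.5 (chr1:171064505-171064736).

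Across the 7 genes with a TSS peak in every library, 2 had every middle-aged rank above every young one, Adgre1 and Tyrobp, beside 30.6% of all genes with such a peak. None had the reverse order, beside 0.274% of all genes. The share among the macrophage genes was thus close to that of genes in general. In the plot of start ranks, Spi1, Adgre1 and Tyrobp stand out as the genes with the tightest middle-aged values, with SDs of 3.17, 3.36 and 1.78.

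**Figure D1:**
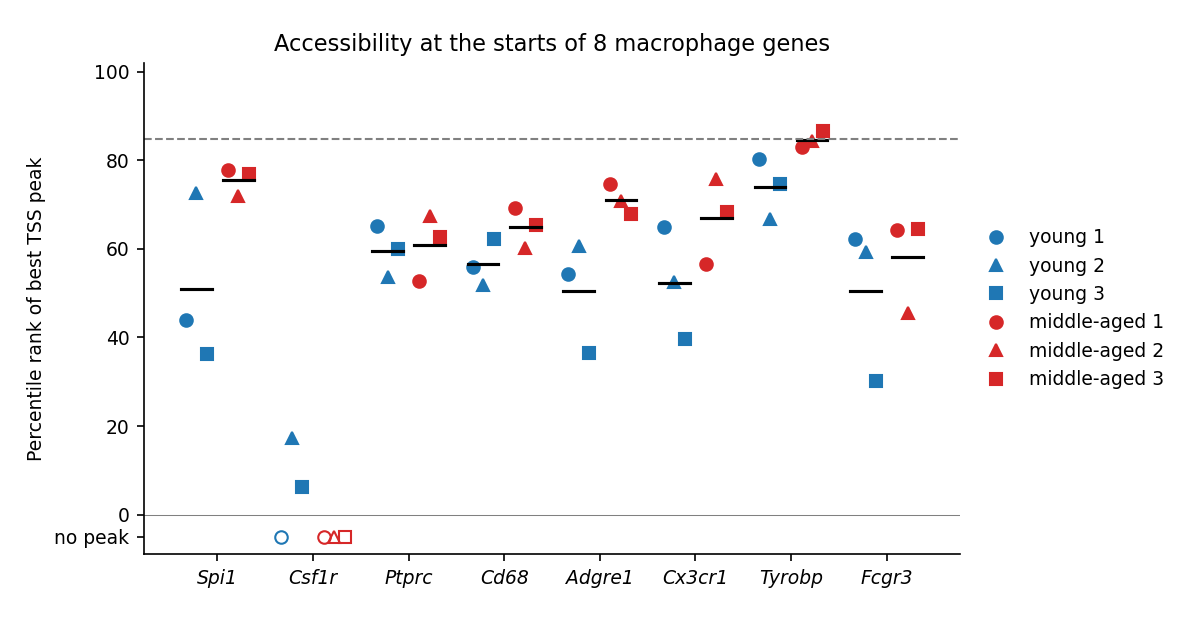
Percentile rank, within its own peak list, of the best peak within 1000 bp of a TSS for each of the 8 genes (vertical axis) in the 3 young and 3 middle-aged libraries; horizontal bars are group means of 3 libraries, open symbols mark libraries with no TSS peak, and the dashed line is the median of all genes at 84.9. Csf1r is the only gene without a peak in some libraries, and the middle-aged values of Adgre1 and Tyrobp all lie above their young values.

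Start and enhancer sequences are shown for regions called in every library, because PU.1 and its partners are known to act through short words in such DNA. All are printed 5′ to 3′ on the strand of the gene, in build GRCm38.p6, the assembly behind mm10. Capitals mark words searched on both strands: the purine box GAGGAA, the longer ETS word AGGAAGT, which can overlap it, the RUNX word TGTGGT, the C/EBP word TTGCNNAA and the AP-1 word TGANTCA. RefSeq promoters were found for 4 of the 8 genes, Ptprc, Cd68, Cx3cr1 and Fcgr3. The bases just before the RefSeq start are given for Cd68 (chr11:69666171-69666320, minus strand), Fcgr3 (chr1:171059404-171059553, minus strand) and Ptprc (chr1:138175307-138175455, minus strand). The next lines give 201 bases around the summit of the Tyrobp region (chr7:30412782-30412982, plus strand) and of the strongest intronic regions of Cx3cr1 (chr9:120058781-120058981, minus strand) and Ptprc (chr1:138136496-138136696, minus strand).
Cd68 promoter: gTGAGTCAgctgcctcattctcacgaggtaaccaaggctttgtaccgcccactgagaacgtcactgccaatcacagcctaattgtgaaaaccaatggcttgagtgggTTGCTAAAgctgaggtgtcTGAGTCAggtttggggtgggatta
Fcgr3 promoter: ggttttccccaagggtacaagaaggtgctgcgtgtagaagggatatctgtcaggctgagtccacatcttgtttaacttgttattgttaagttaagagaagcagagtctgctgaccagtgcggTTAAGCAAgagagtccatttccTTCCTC
Ptprc promoter: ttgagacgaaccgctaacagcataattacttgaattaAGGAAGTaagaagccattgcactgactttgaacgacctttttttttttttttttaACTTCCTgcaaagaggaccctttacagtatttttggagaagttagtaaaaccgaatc
Tyrobp upstream region: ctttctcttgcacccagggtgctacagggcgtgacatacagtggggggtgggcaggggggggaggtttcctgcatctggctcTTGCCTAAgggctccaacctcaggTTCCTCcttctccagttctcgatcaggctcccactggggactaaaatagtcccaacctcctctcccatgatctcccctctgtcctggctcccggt
Cx3cr1 intron: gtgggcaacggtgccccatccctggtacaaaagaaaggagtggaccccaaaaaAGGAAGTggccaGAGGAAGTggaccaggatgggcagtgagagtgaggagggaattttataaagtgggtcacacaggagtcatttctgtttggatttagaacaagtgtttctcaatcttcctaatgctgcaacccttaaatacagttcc
Ptprc intron: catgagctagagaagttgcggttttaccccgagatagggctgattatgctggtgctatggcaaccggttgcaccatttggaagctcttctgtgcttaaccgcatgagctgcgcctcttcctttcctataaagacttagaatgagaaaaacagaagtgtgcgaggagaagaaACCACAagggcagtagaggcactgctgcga

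The C/EBP word was the one most often found at the starts. Within 100 bp of the median summit it was present in 6 of the 8 start regions called in every library, those of Cd68, Adgre1, Fcgr3 and Tyrobp and both of Spi1. It was found in 4.86% of the 10372 regions at a protein-coding TSS that were called in every library. The purine box was found in 2 of these 8 start regions, Tyrobp and Fcgr3, beside 19.1% of the same 10372. Start regions not called in every library were left out of these counts. Among them, that of Csf1r, the second of Cx3cr1 and the Tyrobp start proper held the purine box. The upstream start of Fcgr3 did not, and none of them held the C/EBP word. The longer ETS word was in 2 of the 8, Spi1 and Ptprc, the latter with 2 copies, beside 7.78%. Cd68 alone held the AP-1 word, in 2 copies, beside 3.57% of TSS regions. The RUNX word occurred 3 times beside the upstream start of Spi1 and once at Cx3cr1, so in 2 of 8, beside 7.55%. That Spi1 region, at -13.0 kb from the principal start, was counted as a start only by its annotated upstream transcript. The shares for TSS regions may thus not be the matching ones for it. Of the 22 regions of these loci away from any start and called in every library, 10 held the purine box, beside 44.5% of all 12031 such regions, and 2 the C/EBP word, beside 14.3%. The longer ETS word was in 7, beside 27.6%, the RUNX word in 4, beside 25.2%, and the AP-1 word in 3, beside 22.2%. The strong region in the second intron of Csf1r held none of these words within 100 bp of its median summit. For these matches no test was made, and the words do not show that a factor was bound.

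The 8 loci held much accessible DNA that was shared between libraries. In all they contained 62 regions, where peaks of different libraries were joined by at least 1 bp of overlap, and 36 of them, or 58.1%, were called in every library, beside 35.1% of all 63840 regions. Of the 62, 12 lay at a start of the gene itself, 9 at the start of a neighbouring gene and 41 at neither. Of these 41, 22 were called in every library, 10 of them in the Cx3cr1 locus. The matching share of all regions away from starts is not given here. GENCODE gives Cx3cr1 a long transcript that stretches its gene body well beyond the RefSeq gene, and this gene alone contributed 23 regions. With RefSeq gene limits the loci held 44 regions, 26 of them in every library.

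Among regions away from a start and inside the RefSeq limits of these genes, the strongest was in Csf1r, whose own start was called in 2 libraries. In its second intron, 3050 bp downstream of the principal start on chromosome 18, a region at chr18:61108311-61109000 ranked at 90.4, 90.1 and 83.1 in the young libraries and at 92.7, 92.4 and 93.2 in the middle-aged ones. At the summit 100, 99 and 49 reads were piled up in young libraries and 111, 107 and 124 in middle-aged ones. The fold enrichment was 8.94, 9.28 and 8.36 in the young libraries and 10.9 to 11.2 in the middle-aged ones. All 3 middle-aged values exceeded the young ones on each of these scales, with young 3 lowest throughout, but the fold enrichments overlapped once each list was centred on its median. Reads at the summit were not corrected for depth. Without centring, 88.7% of all 22403 regions had a higher fold enrichment in the middle-aged group. The uncentred scales thus do not set this region apart from regions in general. The mean rank of 90.3 exceeded that of 96.6% of the 12031 regions away from a TSS that were called in every library. By rank, every middle-aged value lay above every young one in 30.6% of genes with a TSS peak in every library. No matching share over all regions is given here, so separate ranks away from starts have only that figure beside them.

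At the Csf1r start itself, chr18:61105657-61105945, peaks were called only in young 2 and young 3. Their ranks were 17.3 and 6.19 and their fold enrichments 3.05 and 3.47, with 32 and 19 reads at the summit. Both peaks stood near the foot of their lists. A list of peaks holds no value where none was called, so the level at this start in the other 4 libraries was not detectable here and cannot be called absent.

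The remaining introns of Csf1r held weaker regions. In intron 11, chr18:61120552-61120921 was called in every library, with ranks of 77.2, 75.1 and 67.8 in the young libraries and 77.8, 72.1 and 78.7 in the middle-aged ones. Its neighbours in that intron at chr18:61119964-61120270 and chr18:61122670-61122962 were called in 4 and 5 libraries, with mean ranks of 39.5 and 21.97. A region just before the strong enhancer, chr18:61107607-61107964, was called in young 1 and all middle-aged libraries at ranks of 15.6 to 29.3. Upstream of the gene, chr18:61090690-61091078 was called in every library but stood near the foot of the lists, at a mean rank of 15.6. The map of the locus shows a single high region and a low start.

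Upstream of Spi1, where its known distal enhancers lie, 4 regions were called in at least 3 libraries. The region beside the upstream start, at -13.0 kb from the principal start, had a mean rank of 62.5 over the 6 libraries. Its neighbour at -11.7 kb, chr2:91084194-91084840, ranked at 56.9, 52.3 and 27.7 in the young libraries and at 67.1, 58.1 and 71.0 in the middle-aged ones. Its groups did not overlap in rank (exact permutation p = 0.1), nor in fold enrichment, at 4.21 to 4.71 against 4.78 to 5.39, but they overlapped in fold enrichment after centring. A weaker region at -9.6 kb was called in young 1 and middle-aged 1 and 2, with ranks of 12.4, 50.4 and 25.4. Farthest out, the region at -25.7 kb ranked highest of the locus, at a mean of 89.9, but it lay at the start of Slc39a13, a zinc transporter gene.

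**Figure D2:**
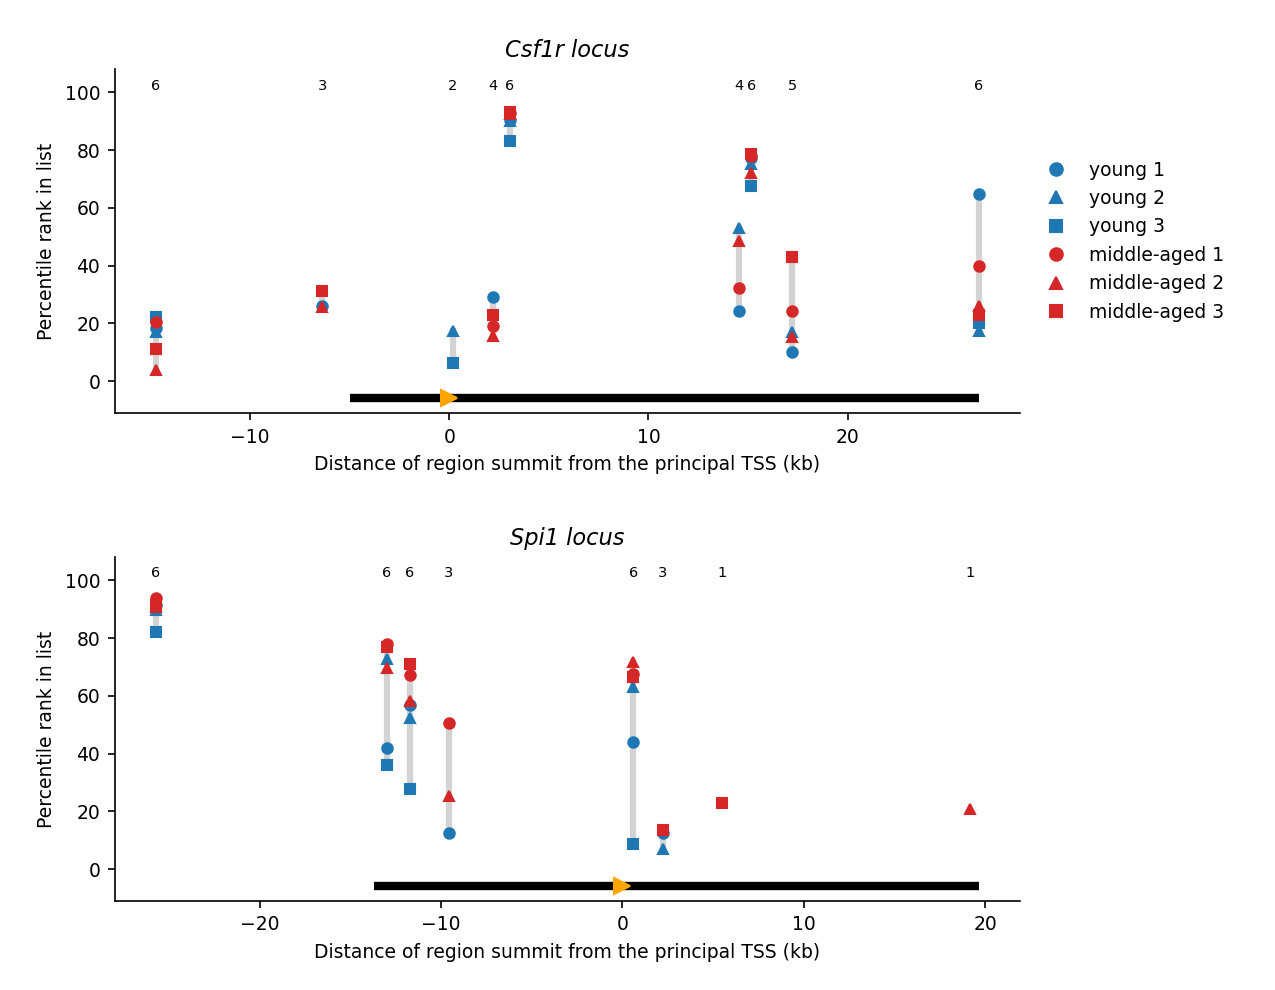
Percentile rank (vertical axis) of each accessible region of the Csf1r and Spi1 loci against the distance of its median summit from the principal TSS in kb (horizontal axis), with a symbol for each library that called it and the number of such libraries at the top; grey bars span the range, the black bar is the GENCODE gene body and the orange arrow the principal TSS. The Csf1r intron region at 3.0 kb stands at 83.1 to 93.2 in all 6 libraries, while the start is called in 2 libraries at 17.3 and 6.19.

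Ptprc also had a strong region inside its second intron. At chr1:138136354-138136811, 38.7 kb downstream of the start, ranks were 86.7, 92.5 and 74.8 in the young libraries and 88.6, 92.7 and 87.9 in the middle-aged ones. The fold enrichment reached 9.52 to 15.7 in the young libraries and 13.3 to 16.6 in the middle-aged ones, and the groups overlapped on both scales. With a mean rank of 87.2 it was stronger than the Ptprc start in every library. Tyrobp had a region at -19.3 kb, chr7:30394261-30394840, with ranks of 62.2, 60.6 and 70.3 in the young libraries and 71.4, 71.2 and 80.3 in the middle-aged ones, which did not overlap (exact permutation p = 0.1). Its centred fold enrichments overlapped. The purine box lay 1 bp from the median summit of that region. Adgre1 had a region at -11.6 kb, chr17:57346929-57347401, with a mean rank of 56.7.

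Around Cx3cr1 the highest region, at chr9:119925161-119925698 with a mean rank of 92.6, lay within the bodies of Gorasp1 and Wdr48 and far outside the RefSeq gene. Inside the RefSeq gene, the intron 1 region at chr9:120058640-120059131, whose sequence is given above, ranked at 68.6, 73.0 and 72.2 in the young libraries and at 77.01, 81.0 and 75.2 in the middle-aged ones. Its ranks did not overlap between the groups (exact permutation p = 0.1), but its centred fold enrichments overlapped. All regions of the Cd68 locus other than its start lay at starts of neighbours. The strongest of them, at an Eif4a1 start, had a mean rank of 89.1. In Fcgr3 the region in intron 3, chr1:171057318-171057638, was called in 4 libraries at a mean rank of 44.9.

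No age difference passed the test at the 36 regions called in every library. By limma on log2 fold enrichment, centred on the median of each list, 0 of the 36 passed an adjusted p of 0.05, beside 0% of all 22403 regions. At an unadjusted p under 0.05 stood 2 of the 36, beside 7.91% of all regions. One was the weak region upstream of Csf1r, with a log2 difference, middle-aged minus young, of -0.44 (SE 0.16, limma adjusted p = 0.572). The other lay in the distant part of the Cx3cr1 body at chr9:120001900-120002481, with 0.30 (SE 0.13, limma adjusted p = 0.602). In centred fold enrichment, 2 of the 36 had every middle-aged value above every young one, beside 5.37% of all regions, and 2 the reverse, beside 8.36%. The higher ones were the Adgre1 start and that same distant Cx3cr1 region.

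The differences at the starts pointed both ways, and each 95% interval spanned both signs. On the centred log2 scale limma gave 0.22 for Adgre1, with a 95% interval from -0.05 to 0.50 and an adjusted p of 0.678. For the principal Spi1 region it gave 0.23, from -0.05 to 0.52, with an adjusted p of 0.669. Tyrobp had 0.17, from -0.20 to 0.54, with a limma adjusted p of 0.827. Below zero stood Ptprc at -0.18, Cd68 at -0.16, Fcgr3 at -0.10 and Cx3cr1 at -0.02, all with limma adjusted p-values of 0.801 or more. These 4 genes had higher mean ranks in the middle-aged libraries, so rank and centred fold enrichment differed in direction for them. The Csf1r enhancer stood at 0.08, from -0.18 to 0.34 (limma adjusted p = 0.891). The median of the 36 regions was -0.02 and so was that of all 22403 regions. Without centring, the median of all regions was 0.21 and 32 of the 36 had a positive difference, beside 88.7% of all regions, none of the 36 with an adjusted p under 0.05 by limma.

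**Figure D3:**
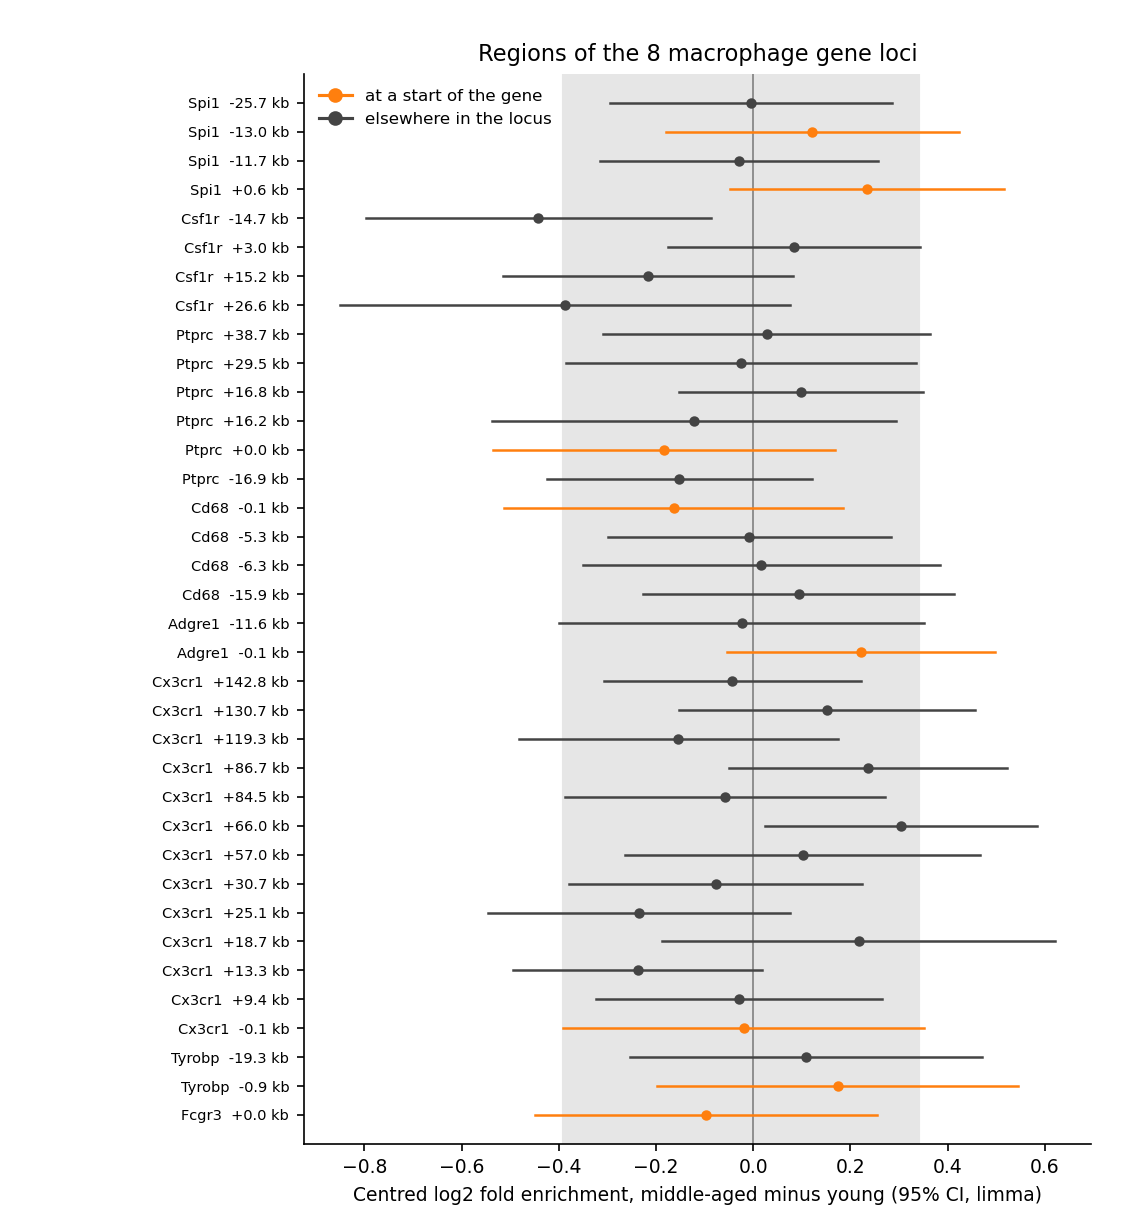
Difference in centred log2 fold enrichment, middle-aged minus young (horizontal axis), of the 36 regions called in every library, each labelled with its gene and its distance from the principal TSS in kb; points are limma estimates from 3 libraries a group, lines are 95% intervals, and the grey band holds the central 95% of the estimates of all 22403 regions. The interval excludes 0 for 2 regions, and the estimates run from -0.44 to 0.30.

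Correlations between the 7 genes across libraries had both signs. Of the 21 pairs among them, 11 had a positive Pearson correlation of centred log2 fold enrichment at the start over the 6 libraries, with a median r of 0.06 and a range from -0.71 to 0.82. No test was made, and no values for other gene pairs are given. For Spi1 and Cx3cr1 the best start peak lay in different regions in different libraries. The mean level of the 7 genes, relative to the median of all starts, was lowest in young 2, at -0.85, and highest in young 1, at -0.58. Genes whose start accessibility followed this mean most closely among 10532 compared were Dusp4, Rcn1, Syncrip, Tbc1d15 and Gstcd, with r from 0.985 to 0.989 over 6 libraries. Because these were the highest of so many, and the libraries differ in depth and list length, the values are a description only.

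Other macrophage genes were also called widely. Of 33 further ones that were annotated, 23 (69.7%) had a TSS peak in every library, beside 48.3% of all genes, and between 25 and 30 had one in any single library, beside 10824 to 12675 of all 21866 genes. Their median rank was 72.7. Every middle-aged rank lay above every young one in 6 of the 23, beside 30.6% of all genes, and 1 had the reverse order, beside 0.274%. Among the strongest was Tlr4, the receptor for bacterial lipopolysaccharide, at a mean rank of 95.6 ± 0.914 (SD over 6 libraries). Cebpa, a partner of PU.1 in myeloid cells, stood at 91.7 ± 3.27. The study also lists Cebpa among adipogenic genes expressed in SSPCs. Csf2ra, a subunit of the GM-CSF receptor, stood at 90.2 ± 2.66 and the complement gene C1qb at 85.9 ± 4.75. The haemoglobin scavenger receptor gene Cd163 and the protease gene Ctss had no TSS peak in any library.

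Markers of the labelled cell type were called less evenly. Of 20 stromal genes, 5 had a TSS peak in every library, beside 48.3% of all genes. In the young libraries 6 to 11 had one, beside 49.5% to 56.8% of all genes. In the middle-aged ones 12 to 13 had one, beside 57.4% to 58.0%. Lepr, the receptor gene by which marrow SSPCs are traced, and Prrx1, a limb mesenchyme factor, had no TSS peak in any library. Cxcl12, a niche chemokine, had one in 4 libraries, the pericyte gene Pdgfrb and the collagen genes Col1a1 and Col1a2 in 5, and the mesenchymal factors Twist1 and Runx2 in 6. Col1a1 ranked at 8.47 in young 1, 1.10 in young 2 and 7.72, 46.3 and 7.18 in the middle-aged group. In young 3 no peak was called at Cxcl12, Pdgfrb, Col1a1 or Col1a2. Besides Twist1 and Runx2, the genes called in every library, named after their values were seen, were the niche factor gene Kitl at a mean rank of 70.4, the intermediate filament gene Vim at 82.5 and the transcription factor gene Ebf3 at 59.7, with 59.6, 77.7 and 21.6 in young 3.

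Lists for other blood and vessel cells stayed lower. Among all genes, 49.5% to 58.0% had a TSS peak in a library. Of 10 osteoclast genes 2 to 4 had a TSS peak in a library, with Nfatc1, the osteoclast master factor, at a mean rank of 80.3 and the RANK gene Tnfrsf11a at 69.9 in every one. Of 13 neutrophil genes the same number, 3, was found in each library. They were Camp, S100a8 and Csf3r, at mean ranks of 70.3, 55.6 and 37.1. Between 1 and 3 of 10 T cell genes were called, with Cd3d in every library at a mean of 61.8, and between 0 and 3 of 10 B cell genes. Of 9 erythroid genes 2 to 4 were called, with Tal1 in every library at a mean of 57.4. Endothelial genes numbered 2 to 5 of 10, with Cdh5 at 87.7, and hepatocyte genes 0 to 1 of 10. The part of any other cell type in the macrophage values was not tested.

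**Figure D4:**
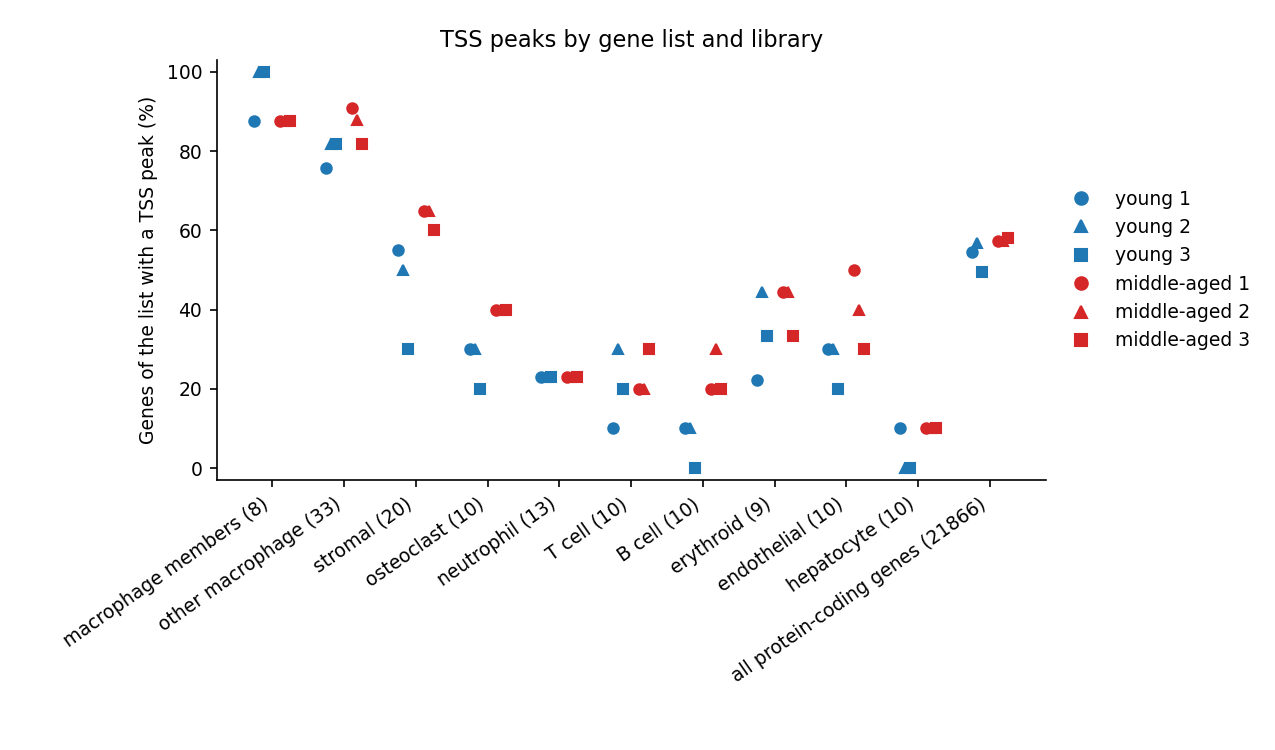
Percentage of the genes of each list (number of annotated genes in parentheses) that had a peak within 1000 bp of a TSS (vertical axis), with 1 symbol for each of the 3 young and 3 middle-aged libraries. The 8 macrophage genes and the 33 other macrophage genes stand above all other lists in every library, with 7 to 8 of 8 and 25 to 30 of 33 genes called.

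Counts of separate ranks moved with the libraries used. Leaving out a library can add a gene to the count but cannot remove one, since each rank lies within its own list. Without young 3, the shortest list, 42 of 61 regions (68.9%) were called in every remaining library, beside 43.9% of all regions, and 3 of 7 genes, Cd68, Adgre1 and Tyrobp, had separate ranks, beside 32.7% of all genes. The rank difference of Fcgr3 then changed sign, to -2.63 points, and with equally long lists it was -10.1 points. Leaving out middle-aged 2 instead gave 5 of 7 separate genes, beside 41.6% of all genes. When the lists were cut to equal length the median rank of the 7 genes was 41.5, and Adgre1 alone kept separate ranks, beside 9.51% of all genes.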

How the data were processed

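ATAC-seq peak lists of 6 libraries, 3 young and 3 middle-aged, were used. According to the study's methods, bcl2fastq made the reads, Bowtie2 placed them on mm10, Sambamba took out duplicates and MACS called the peaks of each library; whether reads were shifted for the transposase is not given in the sources used here. The authors deposited for each peak a score (a whole-number version of −log10 q), a fold enrichment (a linear ratio of summit pileup to local background, each with 1 added), the −log10 of a p-value and the −log10 of a q-value, and a summit position. No read totals were given, so the pileup and background were solved from the fold enrichment and −log10 p, which gave a whole pileup for 100% of peaks. Read counting error and animal variation cannot be separated.

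Ranks used −log10 q. Peaks were merged into regions at 1 bp of overlap. Log2 fold enrichment was tested with limma 3.58.1 in R 4.3.3 over all 22403 regions called in every library, with Benjamini-Hochberg adjustment, and ranks with an exact permutation test over 20 assignments. The limma step was tested on simulated data. Replicate numbers did not pair the libraries. GENCODE vM21 gave starts and gene bodies, and RefSeq promoters. The genes, lists and tests were chosen with earlier results of these data known. Named are all 8 members; of the further macrophage genes the 5 strongest, 1 of which is not reported here, and those never called; 8 stromal markers; from other lists, genes called in every library; and the regions at starts, in Csf1r introns, upstream of Spi1 and the strongest elsewhere in each locus. Clec7a and Ahsp were listed but not matched to a protein-coding gene of that name. The authors' differential comparison needs reads and was not repeated.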

Additional observations from a re-analysis of the deposited data

How the results depend on the processing

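Over the alternatives tried, no region of the 8 loci passed an adjusted p of 0.05 by limma, and the lowest adjusted p of any region was 0.135, without centring. With equally long lists the median rank of the 7 genes was 41.5, 1 gene had separate ranks, beside 9.51% of all genes, and the rank differences of Ptprc, Cd68 and Fcgr3 were -13.5, -2.64 and -10.1. Without centring, the log2 difference became 0.018 for the Csf1r intron 11 region and 0.051, 0.071, 0.21 and 0.14 for the Ptprc, Cd68, Cx3cr1 and Fcgr3 starts. With summit pileup over genome background that of the Cx3cr1 start became 0.17. Leaving out 1 library at a time gave 2 to 5 genes with separate ranks, beside 32.7% to 58.7% of all genes, rank differences of -1.90 to 5.51 for Ptprc and -2.63 to 13.9 for Fcgr3, and log2 differences of -0.16 to 0.12, -0.035 to 0.30 and -0.20 to 0.049 for the Cx3cr1, Tyrobp and Fcgr3 starts. The cause of these changes was not tested. Leaving out a library cannot lower the count of genes with separate ranks, since each rank lies within its own list.

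Libraries of the same number did not deviate together (correlations 0.0116, 0.0115 and -0.0185). With the replicate block, 3 genes had ranks higher in every middle-aged library than in the young library of the same number, beside 46.6% of all genes, and limma called 0 regions, with 1759 at an unadjusted p under 0.05. Peak lists give no value below the caller's threshold, which limits what can be said where no peak was called.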
